A study of Mus musculus with 6 samples.

Results

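The 9 genes described here encode transcription factors that build the atria and the conduction system of the heart: the T-box factors *Tbx3*, *Tbx5* and *Tbx20*, the GATA factors *Gata4* and *Gata6*, the homeobox factors *Nkx2-5* and *Shox2*, the orphan nuclear receptor *Nr2f2* (COUP-TFII) and the basic helix-loop-helix factor *Hand2*. They were chosen by gene name from the 43432 genes of the atrial RNA sequencing table, each name was found once, and all 9 passed the filter on low values. The RNA came from right and left atrial tissue of C57BL/6J wild-type mice, 3 obese mice fed a high-fat diet (HFD) and 3 lean mice fed control chow, each for 10 weeks from 6 weeks of age. No transgene or gene deletion was carried by either group. The diet of each sample was read from its title, which names the matching column of the table, whereas the treatment field of the labels states the opposite diet for all 6 samples; every direction given below rests on the titles. The question the comparison answers is whether diet-induced obesity goes along with a different atrial transcript level of these factors.

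In the adult and developing heart, working atrial muscle and the nodes are kept apart by transcription factors that act together on shared regulatory elements. *Tbx5*, *Nkx2-5*, *Gata4* and *Gata6* act as activators of the cardiac muscle program, and *Tbx20* both represses and activates cardiac genes. *Nr2f2* sets atrial rather than ventricular identity in cardiomyocytes and is also the factor of venous endothelium. *Tbx3* represses working-muscle genes in the sinus and atrioventricular nodes, and *Shox2* keeps the sinus node and the sinus venosus myocardium free of the *Nkx2-5* program. *Hand2* acts in the growth of the heart tube, in the epicardium and in sympathetic neurons.

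None of the 9 factors had an adjusted p under 0.05 between obese and lean atria. In the limma fit, with Benjamini-Hochberg adjustment over all 15275 genes tested, 0.746% of genes were called, 0.484% higher and 0.262% lower in obese atria. None of the 9 had an unadjusted p under 0.05 either, against 12.2% of all genes, and on the recovered reads 0 of the 9 were called by the edgeR quasi-likelihood test, where 0.57% (TMM) and 0.596% (RLE) of genes were called, or by the DESeq2 Wald test, where 3.16% were. The log2 differences between obese and lean atria ran from -0.24 for *Gata6* and *Nr2f2* to 0.21 for *Tbx3*. They were positive for 3 factors and negative for 6, with a median of -0.09, where the median over all genes was 0.00492; relative to cardiomyocyte markers, a scaling that moved the median of all genes to 0.235, *Tbx5*, *Nkx2-5*, *Gata4* and *Hand2* also became positive. The 95% intervals of the 9 factors all included 0, and their width differed: that of *Gata6* ran from -0.49 to 0.014 and that of *Tbx3* from -0.37 to 0.79 on the log2 scale. *Gata6* was the only factor for which the values of obese and lean mice did not overlap, and 18% of all genes tested did not overlap.

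The libraries held between 15874251 and 28971508 reads on genes, and between 164 and 7809 reads on each of the 9 factors in each mouse. Values below are normalized counts, which are reads divided by one size factor per library, and differences are on the scale of log2(normalized count + 1), obese minus lean. The labelled tissue was checked with marker genes. The 5 atrial myocyte markers summed to between 285064 and 518575 normalized counts per mouse and the 5 lung epithelial markers to between 0 and 4.54, while ventricular markers were highest in lean mouse 2, at 17448 against 6921 to 9918 in the other 5 mice. The obese mice were not alike: the summed level of 10 cardiomyocyte markers was 628342 and 770323 in obese mice 1 and 2, 1034203 in obese mouse 3 and between 911387 and 930891 in the lean mice. The markers disagreed in obese mouse 3. *Actc1*, at 201539 against 86944 to 100697 in lean mice, *Myh6*, *Tnnc1*, *Actn2* and *Mybpc3* were above every lean mouse there. *Tnnt2*, *Tnni3* and *Pln*, at 99709, 49850 and 21463, were below every lean mouse, and *Ttn* and *Ryr2* lay within the lean range. The 4 brown adipocyte markers summed to between 616 and 1283 in obese and between 187 and 330 in lean mice. Of these, 3 were tested and 2 were called higher by limma, where 0.484% of all genes were. Macrophage markers summed to between 8377 and 10253 in obese and between 6405 and 8682 in lean mice, with 0 of 6 called. The part of these cells in the values of the 9 factors was not tested. In RNA from whole tissue, fewer cells of a type and less RNA per cell cannot be told apart.

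**Figure D1:**
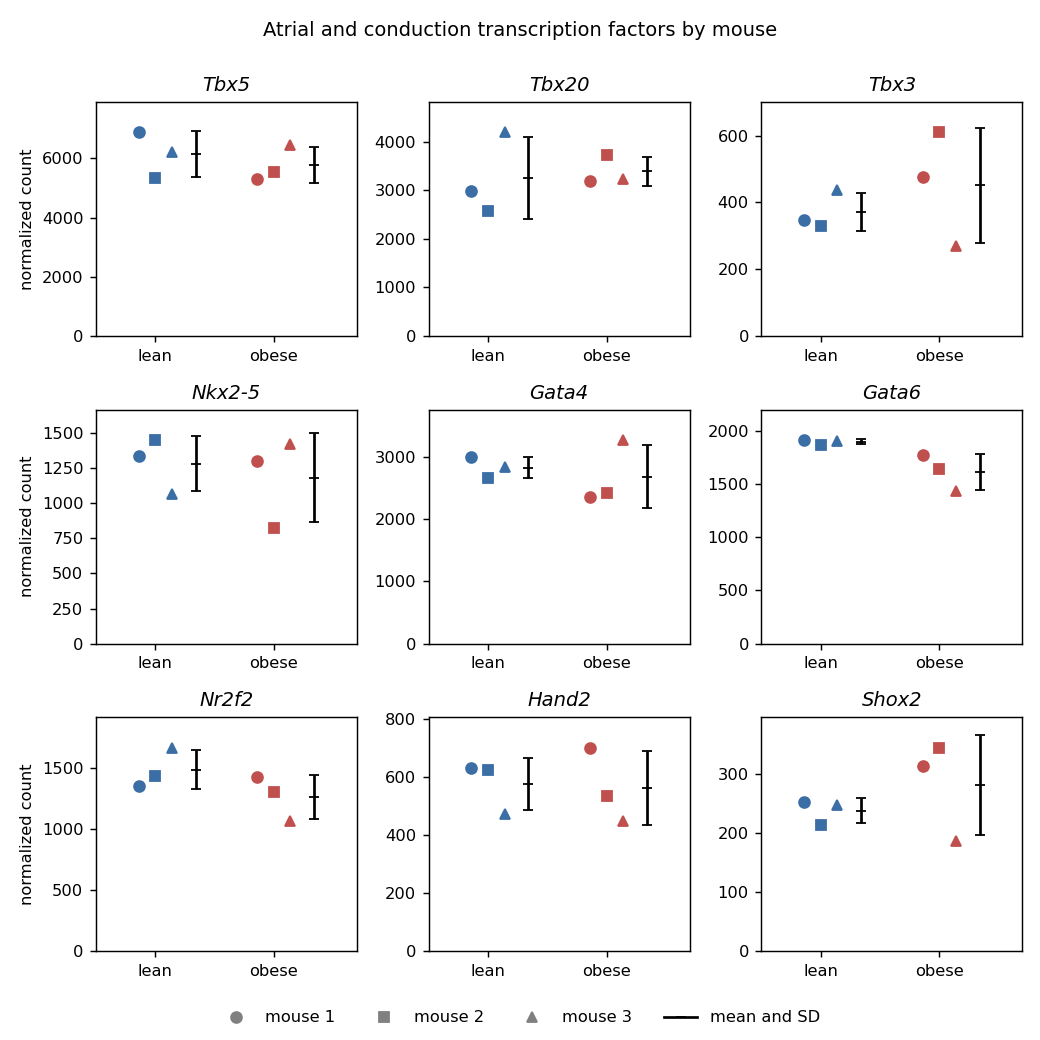
Normalized count of each of the 9 transcription factors (vertical axes, starting at 0) in the 3 lean (blue) and 3 obese (red) mice, with circles, squares and triangles for mice 1, 2 and 3 and a bar for the mean and SD of each group. The groups overlap for 8 factors; for *Gata6* the 3 obese mice, at 1431 to 1770, lie below the 3 lean mice, at 1869 to 1914.

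Sequence upstream of the start is shown for 2 of the factors: *Shox2*, whose pattern over the mice was the closest of the factors to that of *Tbx3*, and *Hand2*, whose start region is shared with an antisense transcript. RefSeq promoter windows on GRCm38.p6 were matched by symbol for 5 of the 9 factors, *Shox2*, *Nr2f2*, *Hand2*, *Tbx20* and *Nkx2-5*. The 250 bases before the start lie at chr3:66981772-66982021 on the minus strand for *Shox2* and at chr8:57320733-57320982 on the plus strand for *Hand2*. Capitals mark matches, on either strand, to 5 short motifs of cardiac factors: AGATAA for GATA factors, AGGTGT for T-box factors, TNAAGTG for NKX2-5, CATCTG for an E-box and AGGTCA for COUP-TF.
Shox2: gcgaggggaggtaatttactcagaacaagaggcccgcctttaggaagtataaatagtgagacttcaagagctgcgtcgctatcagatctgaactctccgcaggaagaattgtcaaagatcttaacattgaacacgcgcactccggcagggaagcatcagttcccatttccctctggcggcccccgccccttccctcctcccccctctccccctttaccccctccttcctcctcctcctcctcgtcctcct
Hand2: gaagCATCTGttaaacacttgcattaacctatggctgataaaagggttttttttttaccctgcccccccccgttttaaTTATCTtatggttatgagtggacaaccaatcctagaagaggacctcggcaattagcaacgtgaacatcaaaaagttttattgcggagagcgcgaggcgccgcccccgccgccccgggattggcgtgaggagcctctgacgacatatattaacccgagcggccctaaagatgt
In *Hand2*, the GATA letters were read on the opposite strand as TTATCT, with their first base 172 bases before the start, and the E-box began 246 bases before it. The other 4 windows held none of the 5 motifs. The share of all 32851 windows of 250 bases with a motif was 9.99% for AGATAA, 11.8% for AGGTGT, 10.1% for TNAAGTG, 14.4% for CATCTG and 14% for AGGTCA, so the matches in *Hand2* are of a common kind. A match describes letters only.

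Levels can be compared between genes only per length, and the following order is of mean normalized counts per kb of exon over the 6 mice. *Tbx5* stood first with 1349 per kb, above 96.4% of the genes tested. *Nkx2-5* with 807 and *Gata4* with 706 per kb followed and did not differ beyond their spread, since *Nkx2-5* was the higher of the pair in 4 of 6 mice. *Tbx20* with 356, *Gata6* with 275 and *Hand2* with 255 per kb formed the next group, and the ranges of neighbours over the mice overlapped. *Nr2f2* came next with 159 per kb, below *Hand2* in all 6 mice. The nodal factors *Shox2*, with 78.4 per kb, and *Tbx3*, with 62.1 per kb, were lowest, near the median of 67.7 per kb over all genes tested, and *Shox2* was above *Tbx3* in 6 of 6 mice although their ranges overlapped. With the length of the longest annotated transcript in place of all exon bases, an alternative chosen after seeing the data, 5 of the 8 neighbouring pairs kept their order; *Nkx2-5* and *Gata4* changed places, as did *Tbx20* and *Gata6*, and *Nr2f2* moved above *Hand2*.

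**Figure D2:**
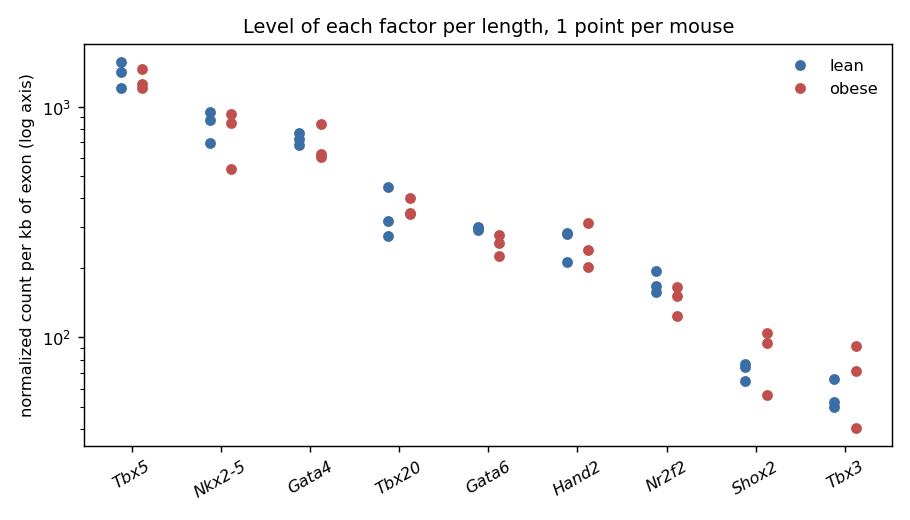
Normalized count per kb of exon (log axis) of each factor, 1 point per mouse, lean in blue and obese in red, ordered by the mean over the 6 mice. *Tbx5*, at 1200 to 1557 per kb, lies above the other 8 factors in every mouse, and *Shox2* and *Tbx3*, at 40.5 to 104 per kb, lie below them.

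Among the factors of the working myocardium, *Tbx5*, the T-box activator of atrial and conduction genes, lies at chr5:119834663-119885218. It measured 5300.1, 5553 and 6454 normalized counts in obese mice 1, 2 and 3 and 6879, 5344 and 6216 in lean mice 1, 2 and 3. The values interleaved, and obese mouse 1 was the lowest of all 6. The difference was -0.09 ± 0.13 (SE, n = 3 and 3), with an adjusted p of 0.841 by limma, and the 95% interval of -0.38 to 0.20 covers anything from a level 23.1% lower to one 14.9% higher. Of the 9 factors, *Gata6* alone had a smaller SE.

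*Gata4*, a zinc-finger activator that partners *Tbx5* and *Nkx2-5*, lies at chr14:63198922-63271692. It had 2360 (obese mouse 1), 2425 and 3272 normalized counts in obese mice and 3002, 2655 and 2833 in lean mice. Obese mice 1 and 2 held the lowest values and obese mouse 3 the highest, so the lean mice sat between them. The difference was -0.09 ± 0.14 (SE), with an adjusted p of 0.850 by limma. The summed cardiomyocyte markers had the same order among the obese mice, lowest in mouse 1 and highest in mouse 3. Among the lean mice the orders differed. Lean mouse 2 had the highest marker sum, at 930891 against 911387 and 911561 in lean mice 1 and 3, but the lowest lean *Gata4*. The part of these markers in the *Gata4* values was not tested.

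*Nkx2-5*, the homeobox factor of working and early cardiac muscle, lies at chr17:26838664-26841565. Its normalized counts were 1298, 822 and 1420 in obese mice 1, 2 and 3 against 1332, 1449 and 1062 in lean mice 1, 2 and 3. Obese mouse 2 alone fell below the lean range, and the other obese values lay within it. The difference was -0.15 ± 0.20 (SE), with an adjusted p of 0.829 by limma, and became 0.10 without obese mouse 2. Obese mouse 2, with the lowest *Nkx2-5*, had the highest *Tbx3* and *Shox2* of the 6 mice.

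*Tbx20*, the T-box factor that restrains *Tbx2* in chamber muscle, lies at chr9:24720812-24774303. It measured 3201, 3735 and 3226 normalized counts in obese mice and 2990 (lean mouse 1), 2573 and 4192 in lean mice. The 3 obese values lay inside the lean range, and the CV was 8.90% in obese and 25.9% in lean mice. The difference was 0.09 ± 0.17 (SE), with an adjusted p of 0.887 by limma, and became -0.067 without lean mouse 2.

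**Figure D3:**
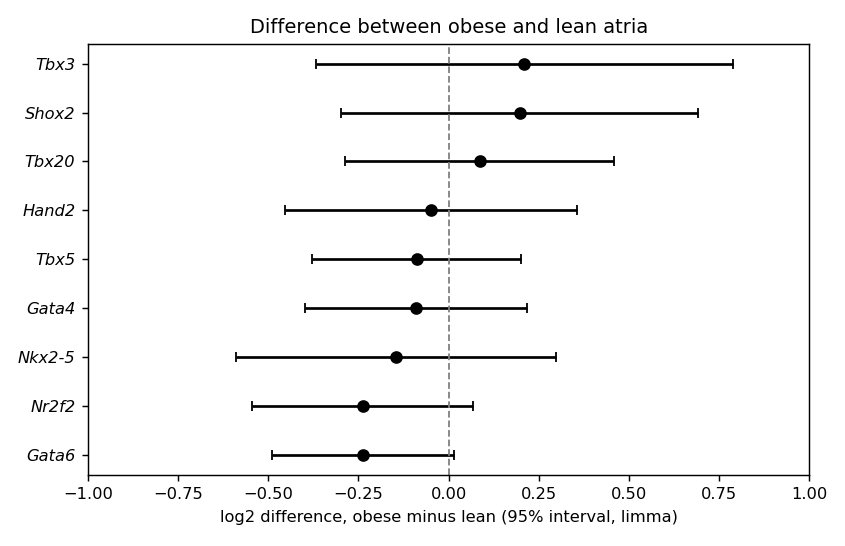
Difference between obese and lean atria for each factor (horizontal axis, log2 scale, obese minus lean), with the 95% interval from limma. All 9 intervals include 0, and the interval of *Tbx3*, from -0.37 to 0.79, is the widest.

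The factors tied to atrial identity and to non-muscle cells included the 2 most negative differences. *Gata6*, a zinc-finger factor of muscle, endocardium and vessel wall, is encoded on chromosome 18 and measured 1770.0, 1637 and 1431 normalized counts in obese mice 1, 2 and 3. In the lean mice it measured 1914, 1869 and 1904, with a CV of 1.24%. All obese values lay below all lean values, as they did for 9.17% of the genes tested. Mean levels were 1613 ± 171 (SD, n = 3) for obese mice and 1896 ± 23.4 (SD, n = 3) for lean mice, and the difference of -0.24 ± 0.11 (SE) had an unadjusted p of 0.0613 and an adjusted p of 0.438 by limma. An exact two-sided permutation test gave p = 0.1, the smallest that 3 mice against 3 allow. Over 17 alternative settings the adjusted p ranged from 0.364 to 0.990, so this factor did not pass the test. Relative to cardiomyocyte markers the *Gata6* difference was -0.0083. That scaling moved the differences of all genes by the same amount, and their median to 0.235, so *Gata6* stayed below the median.

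*Nr2f2*, the nuclear receptor of atrial and venous identity, lies at chr7:70351946-70366735. It had 1420.5, 1303 and 1063 normalized counts in obese mice against 1353, 1435 and 1664 in lean mice. Obese mice 2 and 3 were below all lean mice, while obese mouse 1 lay within their range. The difference was -0.24 ± 0.14 (SE), with an adjusted p of 0.543 by limma. Relative to cardiomyocyte markers it was -0.0078, where the median of all genes was 0.235. Markers of lymphatic and venous endothelium, cells that are known to express *Nr2f2*, summed to between 5002 and 5728 normalized counts in obese and between 4190 (lean mouse 2) and 4346 in lean mice. Of the 6 listed, 1 was called higher, where 0.484% of all genes were. It was the hyaluronan receptor *Lyve1*, at 0.88 with an adjusted p of 0.0172 by limma. Endothelial markers likewise summed to between 16084 and 16937 in obese and between 13878 and 14247 in lean mice, and the part of these cells in the *Nr2f2* value was not tested.

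*Hand2*, the helix-loop-helix factor of heart tube, epicardium and sympathetic neurons, lies at chr8:57320983-57324517. It measured 702, 536 and 450 normalized counts in obese mice and 632, 627 and 473 in lean mice. Obese mouse 1 was highest and obese mouse 3 lowest of the 6. The difference was -0.05 ± 0.18 (SE), with an adjusted p of 0.952 by limma, and its sign changed without obese mouse 3, where it was 0.10. The sum of 7 autonomic neuron markers was 482, 134 and 192 in obese and 455, 293 and 312 in lean mice. It was highest in obese mouse 1, which had the most *Hand2*, and lowest in obese mouse 2, where *Hand2* was 536. The sum of 6 epicardial markers was 1429, 2255 and 1824 in obese and 2191, 2000 and 1428 in lean mice. The part of these cells in the *Hand2* values was not tested. The antisense transcript *Hand2os1* overlaps *Hand2* over 3251 bases, 461 of them exon in both, and had 654, 621 and 401 normalized counts in obese mice against 464, 601 and 619 in lean mice. The sources used here do not say if counting took strand into account, so reads from *Hand2* and *Hand2os1* cannot be told apart where their exons overlap.

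The nodal factors *Tbx3* and *Shox2* had the most positive differences and the most spread among the obese mice. *Tbx3*, the T-box repressor that marks the sinus node, atrioventricular node and bundle, lies at chr5:119670669-119684724. It measured 475, 609.9 and 268 normalized counts in obese mice 1, 2 and 3 and 348, 329.9 and 437 in lean mice 1, 2 and 3. Obese mice 1 and 2 were above every lean mouse and obese mouse 3 was below every one of them. The difference was 0.21 ± 0.26 (SE), with an adjusted p of 0.807 by limma, and the interval of -0.37 to 0.79 reaches from 22.6% lower to 72.6% higher. The CV of *Tbx3* was 38.2% in obese and 15.4% in lean mice. Its within-group SD of 0.455 on the log2 scale was larger than that of 97.1% of 2773 genes of similar level.

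*Shox2*, the homeobox factor of the sinus node, lies at chr3:66971727-66981771. Its normalized counts were 313, 345 and 186 in obese mice 1, 2 and 3 and 253, 214 and 247 in lean mice 1, 2 and 3. As with *Tbx3*, obese mice 1 and 2 were above every lean mouse and obese mouse 3 was below every one. The difference was 0.20 ± 0.22 (SE), with an adjusted p of 0.782 by limma, and the within-group SD was 0.349. Without obese mouse 3 the differences were 0.54 for *Tbx3*, with an adjusted p of 0.164, and 0.47 for *Shox2*, with an adjusted p of 0.200. Over all 17 alternative settings the adjusted p ran from 0.164 to 0.978 for *Tbx3* and from 0.200 to 0.985 for *Shox2*. Without obese mouse 2 the differences were -0.048 for *Tbx3* and 0.027 for *Shox2*.

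The ratio of *Tbx3* to *Shox2*, chosen after their values were seen, stayed between 1.38 and 1.77 in all 6 mice, while *Tbx3* itself ran from 268 to 609.9 normalized counts. How much of a node each piece of atrial tissue held is not given in the labels, and its part in these values was not tested. *Hcn4* and *Isl1* are given beside these factors and were added after their values were seen. *Hcn4*, the pacemaker channel of the nodes, measured 84.4, 244 and 108 normalized counts in obese mice and 162, 123 and 219.7 in lean mice. It was highest in obese mouse 2 and lowest in obese mouse 1. *Isl1*, a sinus node and neuronal factor, measured 41.2, 10.2 and 2.27 in obese and 31.3, 8.90 and 8.74 in lean mice, highest in obese mouse 1 and lowest in obese mouse 3. The *Isl1* value of obese mouse 3 is below the 3.41 normalized counts that 3 reads make in that library, so its low place rests on very few reads. Of the 19 pacemaker and conduction genes tested, *Hcn4* among them, 15 had a negative and 4 a positive difference, whereas those of *Tbx3* and *Shox2* were positive.

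**Figure D4:**
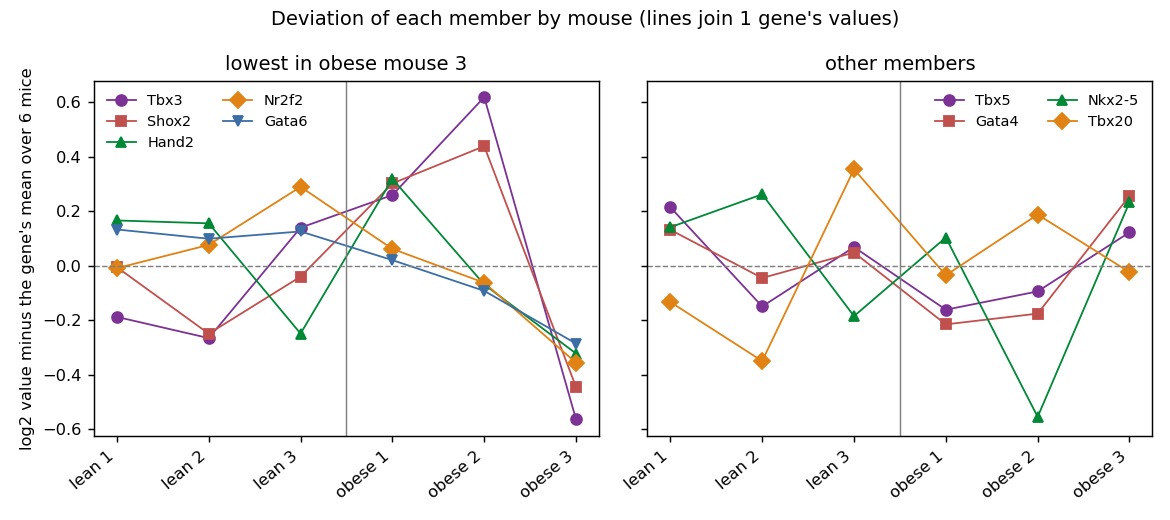
Deviation of each factor from its own mean over the 6 mice (vertical axis, log2 scale) in lean mice 1 to 3 and obese mice 1 to 3, with the 5 factors lowest in obese mouse 3 on the left and the other 4 on the right; lines only join the values of 1 gene. *Tbx3* runs from -0.56 in obese mouse 3 to 0.62 in obese mouse 2, and *Shox2* from -0.45 to 0.44 in the same mice. Among the lean mice *Tbx3* is highest in mouse 3 and *Shox2* in mouse 1.

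Some of the 9 factors had similar patterns across the mice and others did not. Obese mouse 3 was the lowest of the 6 mice for *Tbx3*, *Nr2f2*, *Gata6*, *Hand2* and *Shox2*, and the highest for *Gata4*; over all genes tested it was lowest for 19% and highest for 20.3%. Its *Tbx3* was 0.494 and its *Shox2* 0.566 of the mean of the other 2 obese mice, whereas its *Gata4* was 1.37 and its *Nkx2-5* 1.34 of that mean. Likeness of pattern was measured as the root mean square difference of log2 values, each centred on its mean over the 6 mice, so that 0 is an identical pattern. Among the factors, *Tbx5* was closest to *Gata4*, at 0.087, *Nr2f2* to *Gata6*, at 0.096, and *Tbx3* to *Shox2*, at 0.138. Each value is read against the factor's own spread about its mean, which was 0.143 for *Tbx5*, 0.166 for *Gata4*, 0.193 for *Nr2f2*, 0.149 for *Gata6*, 0.386 for *Tbx3* and 0.302 for *Shox2*. The other 3 factors had no close partner: the nearest was at 0.245 for *Tbx20*, with an own spread of 0.225, at 0.256 for *Nkx2-5*, with 0.287, and at 0.198 for *Hand2*, with 0.233. These are descriptions over 6 mice that share a normalization.

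Among 72 tested genes of the cardiac lists, *Kcnj2*, the inward rectifier channel, was the closest to *Tbx3*, at 0.138, with *Foxp1* second. The same pair, in the other order, was closest to *Shox2*, with *Foxp1* at 0.125. *Kcnj2* measured 1376, 1329 and 722 normalized counts in obese and 815, 767 and 1091 in lean mice, so that it too was lowest in obese mouse 3. *Meis2*, a homeobox cofactor, was closest to *Nr2f2*, at 0.066, and *Dkk3*, a secreted protein abundant in atrial muscle, to *Gata6*, at 0.069, and each of these genes was second for the other factor. *Irx3* was closest to *Tbx5*, at 0.094, with *Zfpm1*, the GATA cofactor FOG1, second at 0.138, where the own spread of *Tbx5* was 0.143. *Zfpm1* was closest to *Gata4*, at 0.119, with *Irx3* second at 0.122 and an own spread of 0.166. For *Nkx2-5*, with an own spread of 0.287, *Zfpm1* was closest at 0.210 and *Stard10* second at 0.225. *Kcnj5* and *Mef2a* were closest to *Tbx20*, at 0.167 and 0.193 with an own spread of 0.225. *Clu* and *Id2* were closest to *Hand2*, at 0.166 and 0.194 with an own spread of 0.233. A distance near the own spread is not a close likeness.

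The balance between factors was read as a ratio in each mouse. The ratio of *Tbx5* to *Tbx3* in normalized counts was 11.2, 9.11 and 24.1 in obese mice 1, 2 and 3 and 19.8, 16.2 and 14.2 in lean mice 1, 2 and 3. The obese mice lay on both sides of the lean mice. The ratio of *Gata4* to *Gata6* was 1.33, 1.48 and 2.29 in obese and 1.57, 1.42 and 1.49 in lean mice, with obese mouse 3 above all others. The ratio of *Nr2f2* to *Tbx5* was 0.268, 0.235 and 0.165 in obese and 0.197, 0.268 and 0.268 in lean mice, with obese mouse 3 the lowest. The groups overlapped for all 3 ratios.

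Of the factors with an annotated transcript on the other strand, the overlapping partner was low in most cases. *Tbx3os1* had between 0 and 10.2 normalized counts, the *Nr2f2* partner *B130024G19Rik* between 17.1 and 57.9, and the *Gata6* partner *1010001N08Rik* between 112 and 197. *Rsrc1*, a protein-coding gene that overlaps *Shox2* over 382 bases, 153 of them exon in both, measured 406, 366 and 321 normalized counts in obese and 372, 355 and 455 in lean mice. Like *Shox2*, it was lowest in obese mouse 3. Values of these 4 factors and of *Hand2* are uncertain to the extent of the shared exon.

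Genes around these factors were read from 4 lists of cardiac genes. The lists were chosen with earlier results of these data known, so their counts are descriptions and not an independent comparison with all genes. Of 29 related cardiac transcription factors, 27 were tested and 0 were called, where 0.746% of all genes were called, with a median difference of -0.06. An unadjusted p under 0.05 in limma was found for 3 of the 27, against 12.2% of all genes. *Hey1*, a Notch target repressor, measured 390, 382 and 335 normalized counts in obese and 503.9, 483 and 443 in lean mice, and its difference of -0.37 had an adjusted p of 0.285. *Gata5* differed by -0.61 with an adjusted p of 0.365, and *Mef2d*, a muscle activator, by 0.27 with an adjusted p of 0.378. The edgeR and DESeq2 counts were taken over the 4 lists together, as 4 and 8 genes. Over all genes, edgeR called 0.57% (TMM) and 0.596% (RLE) and DESeq2 called 3.16%.

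The other lists hold working and conduction genes, some of them known targets of the factors. Of 16 atrial working myocyte genes, all tested, 2 were lower in obese atria and 0 higher, where 0.262% of all genes were called lower, and the median difference was -0.37. Since this list was chosen with earlier results known, its share beside that of all genes is not a test. *Sbk2*, an atrial kinase, measured 2526, 2656 and 2368 normalized counts in obese and 5306, 5007 and 5648 in lean mice, a difference of -1.08 ± 0.11 (SE) with an adjusted p of 0.0027. *Gja5*, which encodes connexin 40 and is known to be activated by *Tbx5* and repressed by *Tbx3*, measured 1060, 1254 and 1554 in obese and 2152, 3019 and 3277 in lean mice. Its difference was -1.12 ± 0.18 (SE), with an adjusted p of 0.0252 by limma. No obese mouse reached the lowest lean value of either gene.

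Of 20 pacemaker and conduction genes, 19 were tested, with a median difference of -0.24. In obese atria 1 of them was lower, where 0.262% of all genes were called lower. This was *Scn10a*, which encodes a sodium channel, at 46.2, 59.1 and 65.9 normalized counts in obese and 123, 177 and 217 in lean mice. The difference was -1.56 ± 0.26 (SE), with an adjusted p of 0.0280 by limma. Of 10 ventricular myocyte genes, all tested, 1 was lower, where 0.262% of all genes were called lower, and the median was -0.42. It was *Hopx*, a homeodomain cofactor, at -0.91 ± 0.15 (SE) with an adjusted p of 0.0310 by limma. The sum of these 10 genes was highest in lean mouse 2, at 36653, against 26713 and 26207 in lean mice 1 and 3. In obese mice it was between 19718 and 27787. *Hopx* was also highest in lean mouse 2, at 3251 against 2629 and 2582 in lean mice 1 and 3, and was 1382, 1303 and 1858 in obese mice. The part of lean mouse 2 in this median was not tested. The cardiomyocyte marker sum was below every lean mouse in obese mice 1 and 2 and above every one in obese mouse 3. Single markers disagreed in obese mouse 3, where *Actc1* was above and *Tnnt2*, *Tnni3* and *Pln* were below every lean mouse. The part of cardiomyocyte content in these lists was not tested. The count over the 4 lists, 4 genes, was 2 relative to cardiomyocyte markers and 0 without a variance trend. It also rested on single mice: it was 1 without obese mouse 1, obese mouse 2, lean mouse 2 or lean mouse 3 and 7 without obese mouse 3.

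**Figure D5:**
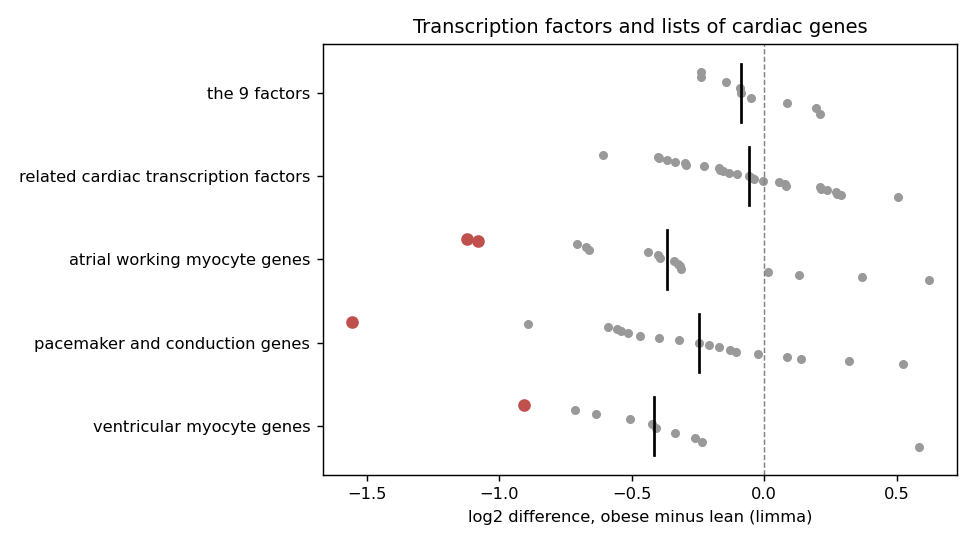
Difference between obese and lean atria (horizontal axis, log2 scale, obese minus lean) of the 9 transcription factors and of the tested genes of the 4 cardiac lists, 1 point per gene, with red points for adjusted p under 0.05 in limma and a vertical bar at each median. The 9 factors lie between -0.24 and 0.21, and the 4 called genes all lie below -0.90.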

How the data were processed

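RNA of right and left atria from 3 obese and 3 lean mice was sequenced from directional libraries. Per the labels and methods, the authors aligned reads with STAR to GRCm38, assigned them with Salmon and normalized with DESeq2; the deposited signal per gene is a read count divided by 1 size factor per sample. The authors' own log2 fold changes, p-values and scores, deposited beside them from DESeq2, were not used. In each sample 100% of values were whole reads within 0.001, and 1 row with no gene name was left out.

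Genes averaging 10 or more normalized counts over the 6 samples were compared with limma 3.58.1 (R 4.3.3, variance trend) on log2(normalized count + 1), adjusted by Benjamini-Hochberg, and called under 0.05. The scale understates changes of low genes. On the recovered reads, edgeR 4.0.16 (quasi-likelihood, TMM or RLE) and DESeq2 1.42.0 were run as alternatives and called 87, 91 and 483 genes. The limma script was tested on simulated data. Exon lengths came from GENCODE M21, trimmed to the deposited gene bounds. Other alternatives were quantile normalization, mitochondrial genes left out, scaling to cardiomyocyte markers, no variance trend, other filters, a pseudocount of 0.1, the replicate number as a block and each mouse left out. Samples were grouped by their titles. Named genes were the 9 factors, the called genes of each cardiac list or otherwise the 3 with the smallest p, the 2 list genes closest in pattern to each factor, overlapping transcripts and cell type markers; *Hcn4* and *Isl1* were added after their values were seen. The 9 factors and the lists were chosen with earlier results of these data known. Numbers are shared between the diets but the animals are not. Counting error alone is covered by read depth.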

Additional observations from a re-analysis of the deposited data

How the results depend on the processing

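The count of 0 called factors held under all 17 alternatives, where the smallest adjusted p was 0.164, for *Tbx3* without obese mouse 3. Scaling to cardiomyocyte markers moved the median of all genes from 0.00492 to 0.235 on the log2 scale; under it the differences of *Tbx5* (0.14), *Nkx2-5* (0.085), *Gata4* (0.14) and *Hand2* (0.18) were positive, each below that median, and those of *Gata6* (-0.0083) and *Nr2f2* (-0.0078) were close to 0. The sign of *Gata6*, *Nr2f2* and *Shox2* was the same under all 17 alternatives. With 1 mouse left out, the differences ranged from -0.048 to 0.54 for *Tbx3*, -0.067 to 0.28 for *Tbx20*, -0.30 to 0.10 for *Nkx2-5* and -0.22 to 0.10 for *Hand2*; *Hand2* was 0.10 without obese mouse 3, 0.02 without lean mouse 1 and 0.02 without lean mouse 2, *Tbx20* was -0.067 without lean mouse 2, and *Tbx3* was -0.048 and *Nkx2-5* 0.10 without obese mouse 2. The cause was not tested.

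Over all genes, 114 were called by limma, 0 without a variance trend (1717 at an unadjusted p under 0.05), 483 by DESeq2 and between 14 and 318 with 1 mouse left out: 50 without obese mouse 1, 24 without obese mouse 2, 318 without obese mouse 3, 48 without lean mouse 1, 14 without lean mouse 2 and 19 without lean mouse 3. Of the cardiac lists, 4 genes were called by limma, 2 relative to cardiomyocyte markers, 0 without a variance trend, 8 by DESeq2 and between 1 and 7 with 1 mouse left out. With the longest transcript as the length, 5 of 8 neighbouring pairs kept their order. The shared replicate numbers did not pair the mice, since deviations of same-numbered mice correlated at 0.12, -0.03 and -0.0039 across genes and 2 of 6 samples correlated best with their own number; the replicate block gave 157 called genes and 0 called factors.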
